A study of Mus musculus with 15 samples.

Results

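The skeletal muscle contractile genes are 38 genes for the proteins of the muscle fibre, and their RNA was followed in the tarsal joint of mice through collagen-induced arthritis. They were chosen by name, with no measured value in the rule but with earlier results of these data known. All 38 were measured, each by a single probe set that names no other gene, among 19938 genes on the array. They fall into 10 genes of fast fibres, 6 of slow fibres, 11 of the sarcomere shared by both fibre types, 6 of calcium handling and 5 of energy supply.

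Each array held the RNA of 1 tarsal joint of 1 male DBA/1JBom mouse, a strain that develops arthritis readily after immunisation with type II collagen. Arthritic mice had received 100 µl of chicken collagen type II at 2 mg/ml in complete Freund's adjuvant (0.5 mg/ml) into the skin on day 1, with a boost in incomplete adjuvant on day 21. Joints with a clinical score of 3, severe redness and swelling, were taken at day 0 to 3 (3 joints), week 1 to 2 (3) and week 3 to 4 (3) after the score began, and 3 joints of the decline group were taken after a score of 3 had lasted over 2 weeks and then fallen. The 3 controls were non-induced mice of the same strain, and the sources used here differ on whether they had received adjuvant; no age is given. Skin, fur and the muscle that could be seen were dissected away before the joint was frozen whole, so that the muscle RNA measured here came from what remained between the cuts through the metatarsus and the lower leg. Of the 3 day 0 to 3 arrays, that of animal 57 failed quality control according to its label. It was left out of every fit, so that day 0 to 3 has 2 arrays and every other group 3, and its values are given apart. In RNA of a whole joint, fewer muscle fibres and less RNA per fibre cannot be told apart. Neither can be told apart from less muscle left by the dissection or a larger share of RNA from other cells.

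A muscle fibre shortens when myosin heads, each a heavy chain with its light chains, pull on actin filaments inside the sarcomere. Titin and nebulin set the length of its filaments, alpha-actinin and its partners anchor them at the Z-disc, and desmin ties neighbouring Z-discs together. Calcium released from the sarcoplasmic reticulum binds troponin and starts the pull, and the fibre is stopped when the calcium is pumped back. Fast fibres use other myosins, troponins and light chains than slow fibres do and rest more on glycogen, slow fibres more on oxygen and myoglobin. Arthritis in general is known to be accompanied by loss of muscle mass near the joint.

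Muscle RNA was lowest in the first days of arthritis. At day 0 to 3, 33 of the 38 genes were lower than in controls and none was higher at a Benjamini-Hochberg adjusted p under 0.05 in limma, where 3.36% of all genes were called lower. In week 1 to 2, 18 of the 38 were lower (4.64% of all genes), and in week 3 to 4, 12 were lower (0.592% of all genes). In decline none of the 38 was called, and 0% of all genes were called. At an unadjusted p under 0.05, 22 of the 38 were then lower and none higher, beside 12% of all genes in either direction. At an unadjusted p under 0.05 with a change of at least 2-fold, 33, 21, 21 and 8 of the 38 differed from control in the 4 phases, all lower other than Pvalb in week 1 to 2, beside 6.5%, 5.49%, 3.29% and 1.47% of all genes in either direction. All these comparisons share the same 3 control arrays. Leaving out 1 array moved the count of members called at day 0 to 3 to between 20 (without animal 16) and 37, and adding animal 57 gave 30. The week 1 to 2 count was 10 without animal 52, 11 without control 3 and 9 with animal 57 added. The week 3 to 4 count was least secure, with 0 without animal 60, 2 without animal 54, 3 without animal 29, 5 without control 3, 7 without control 2, 19 without animal 10 of decline and 0 with animal 57 added.

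The mean log2 level over the 38 genes, a number whose differences between arrays matter and not its size, was 10.03, 9.92 and 10.55 in the 3 controls. It was 8.0 and 8.07 at day 0 to 3, 9.55, 9.50 and 8.71 in week 1 to 2 (animals 33, 43 and 52), 9.12, 9.40 and 9.02 in week 3 to 4 (animals 54, 29 and 60) and 9.36, 9.95 and 9.17 in decline (animals 15, 21 and 10). Both day 0 to 3 arrays were below every other array, and of the arthritic arrays animal 21 of decline alone reached above the lowest control. The median change of the 38 genes from control was -2.11 on the log2 scale at day 0 to 3, a 4.31-fold lower level. The medians that followed were -1.03 (week 1 to 2), -1.05 (week 3 to 4) and -0.64 (decline). Over all genes the median change was -0.12, -0.13, -0.09 and -0.05 in the same order. At day 0 to 3, all 38 genes lay below the lowest control in both arrays, beside 27.8% of all genes. In week 1 to 2, 23 lay wholly below the controls (23.3% of all genes), in week 3 to 4, 30 (15.4%) and in decline 15 (6.2%).

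**Figure D1:**
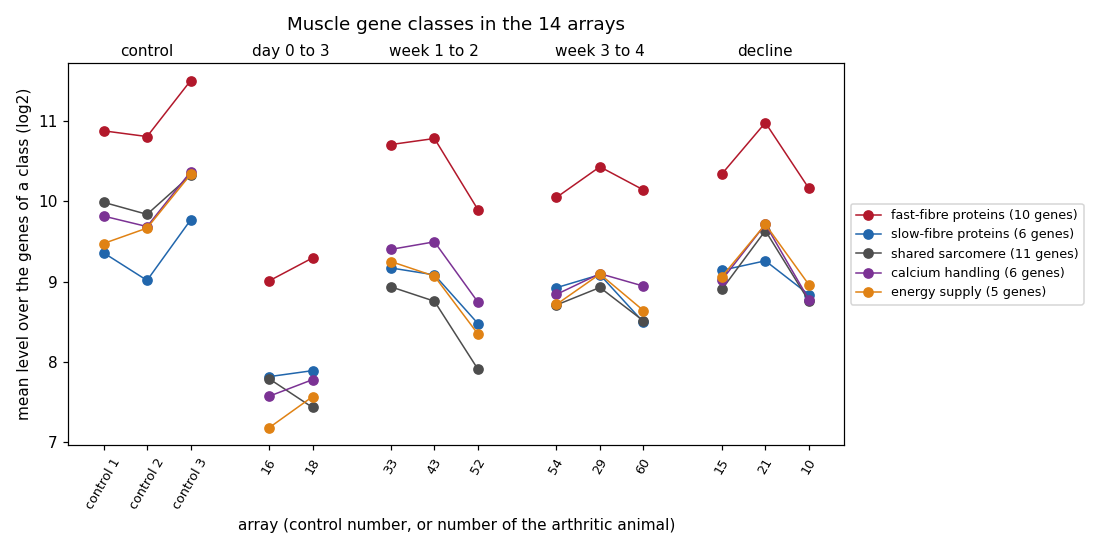
Mean log2 level over the genes of each class (vertical axis) in each of the 14 arrays (horizontal axis), with lines joining arrays of a group only to guide the eye. Every class was lowest in animals 16 and 18 of day 0 to 3, and animal 21 of decline was the highest arthritic array in every class.

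The arrays also differed in their overall spread and in their names. The SD over all genes of an array was 1.22 to 1.46 in controls, 1.53 and 1.60 at day 0 to 3 and 1.28 to 1.65 in the later phases. The array names carry a letter code whose meaning is not given. One code is shared by animal 54 of week 3 to 4, animals 16 and 18 of day 0 to 3, and all of week 1 to 2. Another is shared by the remaining arthritic arrays that were fitted, and no code is listed for animal 57. The controls have none, so that for comparisons with control the code and arthritis cannot be told apart. Within week 3 to 4, animal 54 was below both arrays of the other code for 14 members, between them for 22 and above both for 2. The part of the array spread in the muscle values was not tested.

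Promoter windows are shown for genes picked by their changes, with Acta1, the actin of the filament itself, as the reference. Myl2 passed the adjusted threshold between the first 2 phases, and Mylk4 had the largest fall. Des was about as far below control in week 1 to 2 as at day 0 to 3. Pvalb had the highest change of the 38 in week 1 to 2. Of the genes shown, Pvalb alone stood apart across arrays (r = 0.36 with the mean of the other members). The same r was 0.78 for Des, 0.84 for Myl2, 0.91 for Mylk4 and 0.95 for Acta1. Members not shown, such as Mylpf (0.57) and Tnnc1 (0.72), followed the others less than Des, Myl2, Mylk4 and Acta1 did. Each window holds 250 bases before and 50 after a transcription start of RefSeq on GRCm38.p6, 5′ to 3′ on the gene's strand. Capitals mark the E-box CANNTG, which muscle regulators of the MyoD family bind, the letters TATAAA, and the CArG box bound by serum response factor, searched on both strands.
Myl2, chr5:122092474-122092773, plus strand: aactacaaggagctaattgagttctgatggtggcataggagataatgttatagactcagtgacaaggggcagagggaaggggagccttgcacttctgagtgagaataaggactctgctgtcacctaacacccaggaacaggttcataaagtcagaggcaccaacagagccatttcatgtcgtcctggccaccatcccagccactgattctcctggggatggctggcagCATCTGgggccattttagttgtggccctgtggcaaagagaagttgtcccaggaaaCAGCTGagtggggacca
Mylk4, chr13:32783915-32784214, minus strand: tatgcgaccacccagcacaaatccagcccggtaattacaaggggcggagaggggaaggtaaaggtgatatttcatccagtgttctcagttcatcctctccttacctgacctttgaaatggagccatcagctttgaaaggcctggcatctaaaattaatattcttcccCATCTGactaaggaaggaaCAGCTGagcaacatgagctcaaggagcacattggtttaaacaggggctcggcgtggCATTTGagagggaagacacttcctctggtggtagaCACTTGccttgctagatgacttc
Des, chr1:75360042-75360341, plus strand: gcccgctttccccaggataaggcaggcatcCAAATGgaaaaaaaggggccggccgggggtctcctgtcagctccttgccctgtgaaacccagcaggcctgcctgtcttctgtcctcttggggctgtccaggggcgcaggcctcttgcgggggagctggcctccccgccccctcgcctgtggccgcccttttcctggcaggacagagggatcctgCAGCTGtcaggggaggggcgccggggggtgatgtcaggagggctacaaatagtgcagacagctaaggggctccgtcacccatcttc
Pvalb, chr15:78206351-78206650, minus strand: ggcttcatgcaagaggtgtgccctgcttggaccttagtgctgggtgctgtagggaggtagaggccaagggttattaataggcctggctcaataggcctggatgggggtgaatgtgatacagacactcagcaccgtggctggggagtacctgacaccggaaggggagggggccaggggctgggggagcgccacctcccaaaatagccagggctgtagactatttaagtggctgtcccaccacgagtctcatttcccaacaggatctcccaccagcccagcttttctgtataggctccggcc
Acta1, chr8:123894726-123895025, minus strand: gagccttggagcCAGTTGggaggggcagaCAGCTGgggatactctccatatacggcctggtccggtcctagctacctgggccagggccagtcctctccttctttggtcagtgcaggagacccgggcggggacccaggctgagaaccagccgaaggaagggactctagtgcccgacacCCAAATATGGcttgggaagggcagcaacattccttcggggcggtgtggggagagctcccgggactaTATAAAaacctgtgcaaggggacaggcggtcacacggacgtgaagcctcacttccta

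The E-box form CAGCTG, which every CANNTG count also includes, stood once in each of the windows shown for Myl2, Mylk4, Des and Acta1. The window shown for Pvalb held none of the letters searched, and its other window (chr15:78204188-78204487) held 2 E-boxes, neither of them CAGCTG. Myl2 also has another window (chr5:122092939-122093238), with 3 E-boxes, 1 of them CAGCTG, and 1 TATAAA. The window of Ryr1, which followed the other members (r = 0.93 with their mean), held none of the letters searched either. That of Mylpf, which followed them less (r = 0.57), held 1 CAGCTG. Of the 38 genes, 30 were matched to a window, 37 windows in all because some have several starts. CAGCTG was in 54.1% of these windows (17 of the 30 genes), beside 16.3% of 32851 windows of all genes. CANNTG in any form was in 83.8% against 72.3%, TATAAA in 18.9% against 13.6%, the CArG box in 13.5% against 1.63% and the MEF2 site in 5.41% against 0.557%. A match of letters is a description and not a bound site, and some of the windows belong to the same gene.

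The fast fibre genes were lower at day 0 to 3 in 8 of 10 cases, in week 1 to 2 in 2 and in week 3 to 4 in 2, with a median change of -1.78, -0.64, -0.94 and -0.51 on the log2 scale in the 4 phases. Myh4, the myosin heavy chain of the fastest fibres, measured 11.40, 12.05 and 12.45 in controls, 8.85 and 9.15 at day 0 to 3, then 11.38, 11.01 and 9.86 in week 1 to 2, 9.58, 10.63 and 10.56 in week 3 to 4 and 10.63, 11.31 and 10.23 in decline (all levels on the log2 scale, animals in the order given above). Every arthritic array lay below the lowest control, most of all the first phase. The change was -2.96 ± 0.46 (SE) at day 0 to 3 (adjusted p = 0.00293), -1.22 in week 1 to 2 (adjusted p = 0.0717), -1.71 in week 3 to 4 (adjusted p = 0.0533) and -1.24 in decline (adjusted p = 0.281). Myh1, the heavy chain of type 2X fibres, fell from 11.87, 11.67 and 11.89 in controls to 8.62 and 8.76 at day 0 to 3, a change of -3.12 ± 0.30 (adjusted p = 0.000533). It then measured 10.79, 11.08 and 9.93 in week 1 to 2 (adjusted p = 0.0158), 10.61, 10.76 and 10.32 in week 3 to 4 (adjusted p = 0.0423) and 10.71, 11.54 and 11.08 in decline (adjusted p = 0.346). No arthritic array overlapped the controls, and of the 4 phases decline had the mean nearest to theirs. Myh2, the heavy chain of type 2A fibres, was 3.48-fold lower at day 0 to 3 (adjusted p = 0.00229), 2.53-fold in week 1 to 2 (adjusted p = 0.00615) and 2.48-fold in week 3 to 4 (adjusted p = 0.0256). Myh1, Myh2 and Myh4 lie side by side on chromosome 11 and are near-identical in sequence, so that their values may share signal and how the loss divides among them is uncertain.

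The other fast genes differed among themselves. Myl1, the essential light chain, measured 8.36, 8.16 and 9.63 in controls and 6.21 and 7.78 at day 0 to 3, and the spread within both groups was wide (SD 0.80 over 3 and 1.11 over 2 arrays). Its change of -1.72 ± 0.53 did not pass the test (adjusted p = 0.0607). It measured 8.41, 8.93 and 7.38 in week 1 to 2, 7.64, 8.08 and 7.79 in week 3 to 4 and 8.38, 8.74 and 7.87 in decline, so that week 1 to 2 and decline overlapped the controls and week 3 to 4 lay just below them. Mylpf, the regulatory light chain, was not called at day 0 to 3 either (-0.95, adjusted p = 0.0915) and stood at 0.60 above control in week 1 to 2 (adjusted p = 0.187). Tnnc2, Tnni2 and Tnnt3, the fast troponin that switches actin on with calcium, changed by -0.84, -1.77 and -1.72 on the log2 scale at day 0 to 3 (adjusted p = 0.0263, 0.00201 and 0.000735), and none of the 3 was called later. Actn3, the Z-disc actinin of fast fibres, fell by 2.20 (adjusted p = 0.0254), and Myoz1, a Z-disc protein that binds calcineurin, fell by 2.05 (adjusted p = 0.0177), both at day 0 to 3 and not later. Myoz1 measured 5.97 on animal 16, below the median of that array over all genes (6.31).

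Of the 6 slow fibre genes, 4 were lower at day 0 to 3, 2 in week 1 to 2 and 1 in week 3 to 4, with median changes of -1.24, -0.49, -0.50 and -0.31 in the 4 phases. Myl2, the regulatory light chain of slow and cardiac myosin, stood at 10.26, 9.97 and 10.98 in controls and at 7.03 and 7.09 at day 0 to 3. It stood at 10.23, 10.40 and 9.43 in week 1 to 2, 10.46, 10.69 and 9.95 in week 3 to 4 and 10.49, 10.76 and 9.77 in decline. The 2 first arrays were thus more than 2 log2 units below every other array, and the 3 later groups overlapped the controls. Myl2 was 10.1-fold lower at day 0 to 3 (-3.34 ± 0.36, adjusted p = 0.000579), and later changes were -0.38, -0.04 and -0.06 (adjusted p = 0.438, 0.946 and 0.955). Animal 57 measured 8.54, between the other day 0 to 3 arrays and the lowest control.

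Myl3, the essential light chain that partners Myl2, measured 8.10, 7.68 and 9.12 in controls, 6.90 and 6.96 at day 0 to 3, then 8.72, 8.39 and 7.65 in week 1 to 2, 8.25, 8.96 and 7.93 in week 3 to 4 and 9.18, 9.16 and 8.25 in decline. Its first phase was the lowest, decline animals 15 and 21 were the 2 highest arrays, and no change passed the test (day 0 to 3, -1.37 ± 0.44, adjusted p = 0.0702). Myh7, the heavy chain of slow fibres, followed another course. It measured 7.79, 8.02 and 8.46 in controls, 6.38 and 6.40 at day 0 to 3, then 6.97, 6.98 and 6.46 in week 1 to 2, 6.99, 7.16 and 6.26 in week 3 to 4 and 6.95, 6.85 and 7.32 in decline. All arthritic arrays were below all controls, and the change was -1.70 at day 0 to 3 (adjusted p = 0.00374), -1.29 in week 1 to 2 (adjusted p = 0.00843), -1.29 in week 3 to 4 (adjusted p = 0.0296) and -1.05 in decline (adjusted p = 0.156). Of the slow troponins, Tnni1 was 1.69-fold lower at day 0 to 3 (adjusted p = 0.0362) and 1.52-fold in week 1 to 2 (adjusted p = 0.0484), and Tnnt1 was 2.16-fold lower at day 0 to 3 (adjusted p = 0.0443). Tnnc1 measured -0.89 from control at day 0 to 3 (adjusted p = 0.0627) and measured 0.21 above control in week 1 to 2 (adjusted p = 0.576). The mean of the fast genes minus that of the slow genes was 1.52, 1.79 and 1.74 in controls, 1.19 and 1.40 at day 0 to 3 and between 1.12 and 1.72 in the 9 later arrays. The first phase lay below the controls in this difference and inside the range of the later phases.

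**Figure D2:**
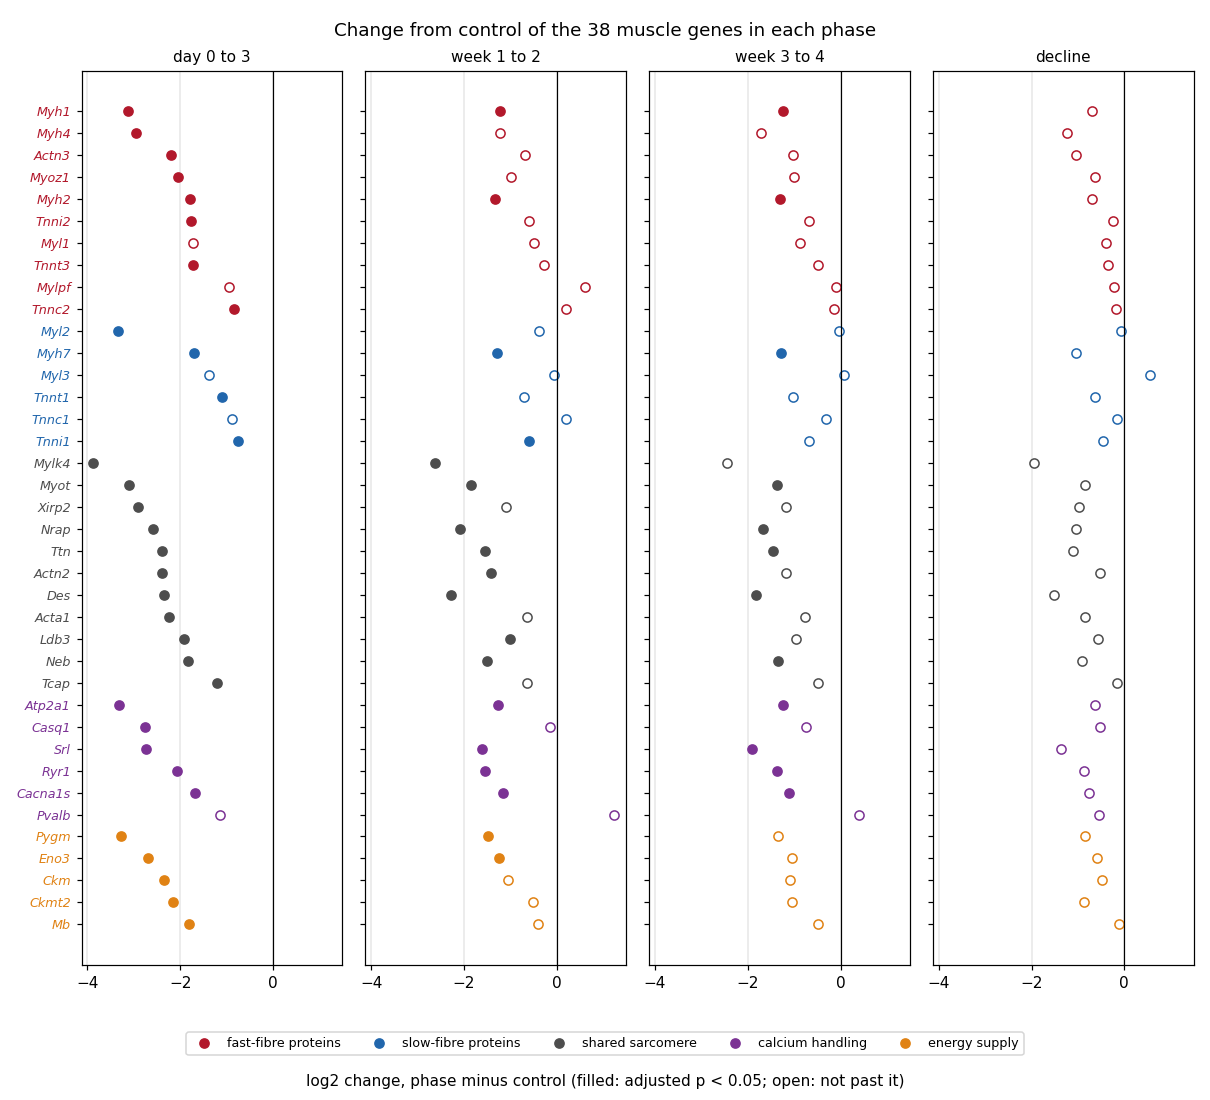
Log2 change from control (horizontal axis) of each of the 38 genes in each phase, filled where the adjusted p was under 0.05 over all genes and open where it was not, with 33, 18, 12 and 0 genes filled from left to right. The points of day 0 to 3 lie between -3.87 and -0.75, and Pvalb at 1.24 is the point farthest to the right in week 1 to 2.

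Of the sarcomere genes shared by all fibres, all 11 were lower at day 0 to 3, 8 in week 1 to 2 and 5 in week 3 to 4, with median changes of -2.39, -1.51, -1.35 and -0.92. Mylk4, a kinase of the myosin light chain kinase family, measured 8.40, 8.92 and 9.87 in controls and 4.98 and 5.42 at day 0 to 3, the largest change of the 38 genes (-3.87 ± 0.67, adjusted p = 0.00511). Both of these levels lie below the medians of their arrays over all genes (6.31 and 6.29), and no background level was measured here, so that no fold is given. It measured 6.95, 6.74 and 5.62 in week 1 to 2 (-2.63, adjusted p = 0.0176), 6.20, 6.83 and 6.85 in week 3 to 4 (-2.44, adjusted p = 0.0569) and 6.89, 8.73 and 5.75 in decline (-1.94, adjusted p = 0.250). Animal 21 of decline was alone among the arthritic arrays in reaching the range of the controls, and the decline arrays were the most widely spread group for this gene. Myot, myotilin of the Z-disc, measured 10.79, 10.24 and 10.80 in controls, 7.81 and 7.18 at day 0 to 3, then 9.14, 9.0 and 8.18 in week 1 to 2, 9.26, 9.56 and 8.90 in week 3 to 4 and 9.59, 10.37 and 9.30 in decline. Its changes were -3.11, -1.84 and -1.37 in the first 3 phases (adjusted p = 0.000712, 0.00512 and 0.0495) and -0.85 in decline (adjusted p = 0.329). Xirp2, a protein of the junction between fibre and tendon, measured 9.99, 9.39 and 9.63 in controls, 7.08 and 6.44 at day 0 to 3, then 9.56, 8.70 and 7.50 in week 1 to 2, 8.46, 8.63 and 8.42 in week 3 to 4 and 8.68, 9.41 and 7.98 in decline. It was called at day 0 to 3 (-2.91 ± 0.49, adjusted p = 0.00414) and in no later phase, and animal 33 of week 1 to 2 and animal 21 of decline lay within its controls.

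Des, desmin, measured 9.49, 9.24 and 10.05 in controls, 7.62 and 6.88 at day 0 to 3, then 7.53, 7.56 and 6.88 in week 1 to 2, 7.74, 8.02 and 7.54 in week 3 to 4 and 8.20, 8.0 and 8.01 in decline. No arthritic array came within 1 log2 unit of the lowest control. The change was -2.35 ± 0.28 at day 0 to 3 (adjusted p = 0.000818), -2.27 ± 0.25 in week 1 to 2 (adjusted p = 0.00161), -1.82 ± 0.25 in week 3 to 4 (adjusted p = 0.0118) and -1.52 ± 0.25 in decline, which missed the threshold (adjusted p = 0.104). Without animal 10 of decline, Des alone of the 38 genes was called there. From day 0 to 3 to week 1 to 2 it differed by 0.07 ± 0.28, the smallest difference of the 38 genes in that comparison. Nrap, which anchors actin where fibres meet tendon, changed by -2.58, -2.09 and -1.66 in the 3 phases (adjusted p = 0.000889, 0.00227 and 0.0232). Ttn, titin, changed by -2.40, -1.55 and -1.47 (adjusted p = 0.000735, 0.004 and 0.0238), and Neb, nebulin, by -1.83, -1.51 and -1.35 (adjusted p = 0.00265, 0.00407 and 0.0269). Des is also made in smooth muscle, and 3 of 8 smooth muscle markers were lower at day 0 to 3, 3 in week 1 to 2 and 1 in week 3 to 4. Their part in the values of Des was not tested.

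Actn2, the alpha-actinin of all fibres, and Ldb3, which binds it at the Z-disc, were called at day 0 to 3 and in week 1 to 2 but not in week 3 to 4. Actn2 was 5.25-fold lower and then 2.66-fold lower (adjusted p = 0.00284 and 0.0195), and Ldb3 was 3.76-fold and then 2.02-fold lower (adjusted p = 0.00201 and 0.0237). Acta1, skeletal alpha-actin, and Tcap, the titin cap, were called at day 0 to 3 only, where Acta1 was 4.75-fold lower (adjusted p = 0.00371) and Tcap 2.32-fold lower (adjusted p = 0.0099). A call in one phase and none in the next is not itself a difference between them.

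Of the 6 calcium handling genes, 5 were lower at day 0 to 3, 4 in week 1 to 2 and 4 in week 3 to 4, with median changes of -2.40, -1.20, -1.18 and -0.70. Atp2a1, the calcium pump of fast fibres, measured 11.21, 11.55 and 11.96 in controls, 8.38 and 8.12 at day 0 to 3, then 10.57, 10.62 and 9.77 in week 1 to 2, 10.31, 10.55 and 10.13 in week 3 to 4 and 10.46, 11.44 and 10.94 in decline. The first phase was below every other array, and animal 21 was the one arthritic array inside the controls. Its changes were -3.32 ± 0.31 at day 0 to 3, a 10.0-fold lower level (adjusted p = 0.000533), -1.26 in week 1 to 2 (adjusted p = 0.0162), -1.25 in week 3 to 4 (adjusted p = 0.0451) and -0.63 in decline (adjusted p = 0.397). Srl, sarcalumenin, a calcium-binding protein of the reticulum, measured 9.26, 8.79 and 9.85 in controls, 6.33 and 6.81 at day 0 to 3, then 7.74, 8.0 and 7.34 in week 1 to 2, 7.28, 7.75 and 7.13 in week 3 to 4 and 7.93, 7.99 and 7.90 in decline. No arthritic array reached the controls, and the changes were -2.73, -1.61 and -1.92 in the first 3 phases (adjusted p = 0.000579, 0.00363 and 0.0118) and -1.36 in decline (adjusted p = 0.132). Ryr1, the release channel, and Cacna1s, its voltage sensor, were lower together. Ryr1 changed by -2.07, -1.54 and -1.36 (adjusted p = 0.00146, 0.00358 and 0.0252) and Cacna1s by -1.68, -1.15 and -1.11 (adjusted p = 0.00108, 0.004 and 0.0232).

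Casq1 and Pvalb, the calcium buffers of fast fibres, ran differently. Casq1, calsequestrin of the reticulum, was 6.74-fold lower at day 0 to 3 (adjusted p = 0.00236) and measured -0.14 from control in week 1 to 2 (adjusted p = 0.821). Pvalb, parvalbumin of the cytosol, measured 11.34, 10.69 and 11.78 in controls, 9.69 and 10.59 at day 0 to 3, then 12.62, 12.79 and 12.11 in week 1 to 2, 11.33, 11.63 and 12.06 in week 3 to 4 and 11.11, 11.70 and 9.34 in decline. All 3 arrays of week 1 to 2 were above all 3 controls, which held for none of the other 37 genes and for 13.6% of all genes. The change was 1.24 ± 0.49 in week 1 to 2 (adjusted p = 0.112) and -1.13 ± 0.54 at day 0 to 3 (adjusted p = 0.204), neither past the threshold. Animal 57, at 8.04, and animal 10 of decline, at 9.34, were the lowest arrays for this gene.

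**Figure D3:**
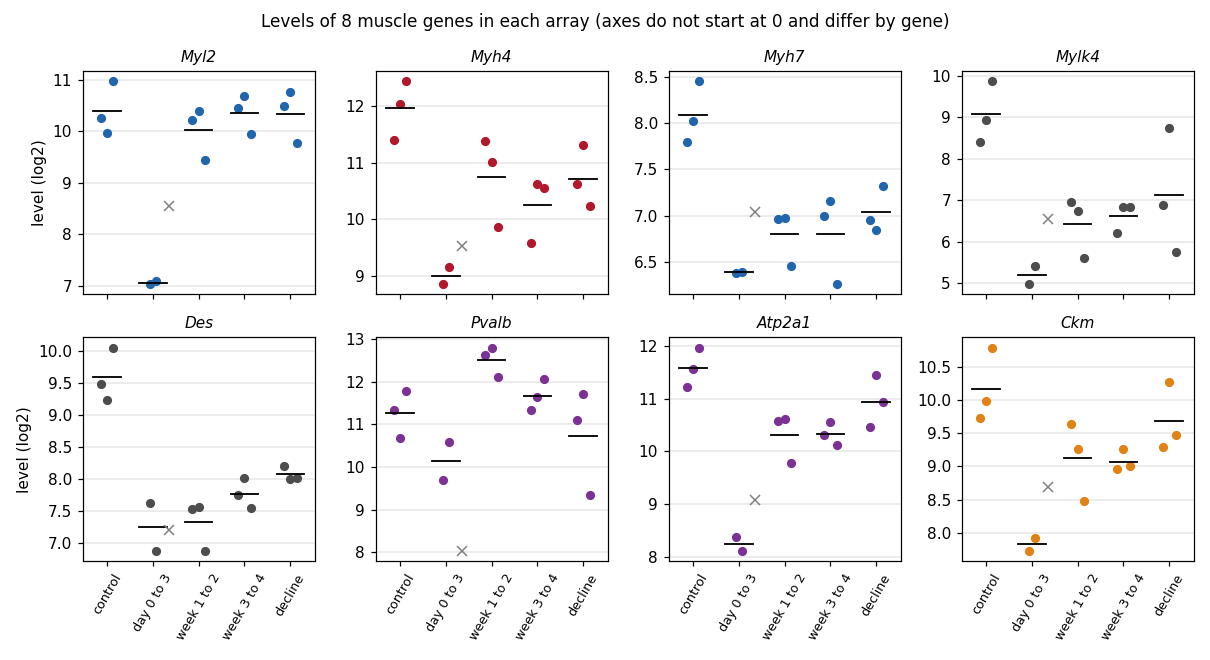
Log2 level of 8 genes in each array, 1 point per array with a bar at the group mean, and a grey cross for the array of animal 57, which is in no mean. In week 1 to 2 Pvalb lies above all controls and Myl2 overlaps them, while Myh4, Myh7, Mylk4, Des, Atp2a1 and Ckm lie below all controls.

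All 5 energy genes were lower at day 0 to 3, 2 in week 1 to 2 and none in week 3 to 4, with median changes of -2.34, -1.04, -1.06 and -0.59. At an unadjusted p under 0.05, 4 of the 5 were lower in week 3 to 4, beside 23.9% of all genes in either direction. Pygm, muscle glycogen phosphorylase, measured 10.58, 10.21 and 11.45 in controls, 7.22 and 7.73 at day 0 to 3, then 9.45, 9.61 and 8.75 in week 1 to 2, 9.43, 9.57 and 9.18 in week 3 to 4 and 9.35, 10.79 and 9.53 in decline. It was 9.68-fold lower at day 0 to 3 (-3.28 ± 0.42, adjusted p = 0.0012) and 2.79-fold lower in week 1 to 2 (adjusted p = 0.0292), and animal 21 alone of the arthritic arrays lay inside the controls. Eno3, the enolase of muscle, measured 10.13, 10.30 and 10.84 in controls, 7.46 and 8.02 at day 0 to 3, then 9.70, 9.46 and 8.35 in week 1 to 2, 9.37, 9.63 and 9.11 in week 3 to 4 and 9.89, 10.22 and 9.39 in decline. It was called at day 0 to 3 (-2.68 ± 0.37, adjusted p = 0.00165) and in week 1 to 2 (-1.25 ± 0.33, adjusted p = 0.032). Ckm, muscle creatine kinase, measured 9.73, 9.98 and 10.79 in controls, 7.73 and 7.92 at day 0 to 3, then 9.64, 9.26 and 8.48 in week 1 to 2, 8.96, 9.26 and 9.0 in week 3 to 4 and 9.29, 10.27 and 9.48 in decline. Its level was 5.07-fold lower at day 0 to 3 (adjusted p = 0.00315) and no later change passed the test (week 1 to 2, -1.04, adjusted p = 0.0589). Ckmt2, the mitochondrial creatine kinase of muscle, changed by -2.15 on the log2 scale at day 0 to 3 (adjusted p = 0.00237). It measured 5.58 and 5.91 there, below the medians of these arrays over all genes (6.31 and 6.29), so that no fold is given. Mb, myoglobin, the oxygen store, was 3.51-fold lower at day 0 to 3 (adjusted p = 0.00454). Ckmt2 and Mb measured -0.51 and -0.40 from control in week 1 to 2 (adjusted p = 0.246 and 0.336).

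The phases were then compared with each other, each represented by joints of other animals. From day 0 to 3 to week 1 to 2, all 38 genes had a difference above 0, with a median of 1.24 on the log2 scale beside -0.02 over all genes. All 3 week 1 to 2 arrays lay above both day 0 to 3 arrays for 28 of the 38 genes, beside 9.12% of all genes. One of the 38 passed the adjusted threshold, Myl2, and it was the single gene called among all (0.00502%). Its level was 7.78-fold higher in week 1 to 2 (2.96 ± 0.36, adjusted p = 0.0282). At an unadjusted p under 0.05, 29 of the 38 were higher and none lower, beside 1.79% of all genes in either direction, and 24 of them were at least 2-fold higher (0.336% of all genes). After Myl2 the largest were Casq1 (2.62, adjusted p = 0.0725), Pvalb (2.37, adjusted p = 0.506) and Atp2a1 (2.07, adjusted p = 0.0704). At the other end were Des (0.07), Tnni1 (0.15) and Neb (0.32), each with an adjusted p of 1. The call of Myl2 was lost with animal 57 added (2.47, adjusted p = 0.182), where Casq1 and Tnnt3 were called instead. It was also lost without either of the other day 0 to 3 arrays, without animal 33, 43, 54, 29 or 15 or without control 1, and its adjusted p ran from 0.000268 to 0.898 over all alternatives, with a difference between 2.47 and 3.25.

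Later phases differed less. From week 0 to 2, the mean of the first 2 phases, to week 3 to 4, 37 of the 38 differences were above 0 with a median of 0.50, and none was called (0.00502% of all genes were, all higher). The largest was that of Myl2 (1.82 ± 0.29, adjusted p = 0.0949). At an unadjusted p under 0.05, 16 of the 38 were higher, beside 7.27% of all genes in either direction, and 4 of them were at least 2-fold higher (1.19% of all genes). From week 3 to 4 to decline, 32 of the 38 differences were above 0 with a median of 0.39, none was called (0% of all genes), and 3 had an unadjusted p under 0.05 (6.13% of all genes), none of them with a 2-fold change (0.431% of all genes). These 3 were Myh2 (0.62), Nrap (0.62) and Atp2a1 (0.61). Pvalb was at the other end with -0.96 ± 0.49 (adjusted p = 0.787). For 7 of the 38, all decline arrays were above all arrays of week 3 to 4, beside 4.33% of all genes.

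Set side by side, the members divided by how far they stood from control in week 1 to 2. Des (-2.27), Nrap (-2.09), Mylk4 (-2.63), Myot (-1.84), Srl (-1.61), Ttn (-1.55), Ryr1 (-1.54) and Neb (-1.51) were lower by more than 1.5 log2 units there, all called. Myl2 (-0.38), Tnnt3 (-0.28), Casq1 (-0.14), Myl3 (-0.05), Tnnc2 (0.19), Tnnc1 (0.21), Mylpf (0.60) and Pvalb (1.24) were the 8 members with the highest changes, none called. Both sets hold calcium-binding proteins, and they were sorted after their values were seen. A member that missed the threshold is not shown to have regained the level of the controls.

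The array of animal 57, which failed quality control, was low for most of the 38 genes too. It lay below every control for 36 of the 38 genes and within the controls for Myl1 and Myl3. It lay above both other day 0 to 3 arrays for 25 genes and below both for 8, so that its muscle RNA stood mostly between theirs and that of the controls. Des measured 7.20 on it, Mylk4 6.55, Myh4 9.53, Atp2a1 9.08 and Ckm 8.69.

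The 38 genes varied together across arrays. Over 703 pairs the median Pearson r was 0.82 across 14 arrays and 0.75 across the 12 arrays without day 0 to 3. These points share 5 groups and the arrays' common scaling, and the values are given as a description. Ryr1 and Cacna1s, the release channel and its sensor, had the highest pair value (r = 0.99), followed by Myh1 and Atp2a1 (0.98). Pvalb stood apart, with r = 0.36 against the mean of the others and -0.08 against Des, the lowest pair. Mylpf was next (r = 0.57), and Pygm was closest to the rest (r = 0.98). The 10 other genes of the array most like the mean of the 38 were Ampd1 (r = 0.99), Mybpc2 (0.98), Tpm2 (0.98), Hspb6, Hrc, Tmod4, Sh3bgr, Lpin1, Eef1a2 and Car3, all with r of at least 0.95 over 14 arrays. Ampd1, Mybpc2, Tpm2, Hrc and Tmod4 are in the lists of other muscle genes described next.

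**Figure D4:**
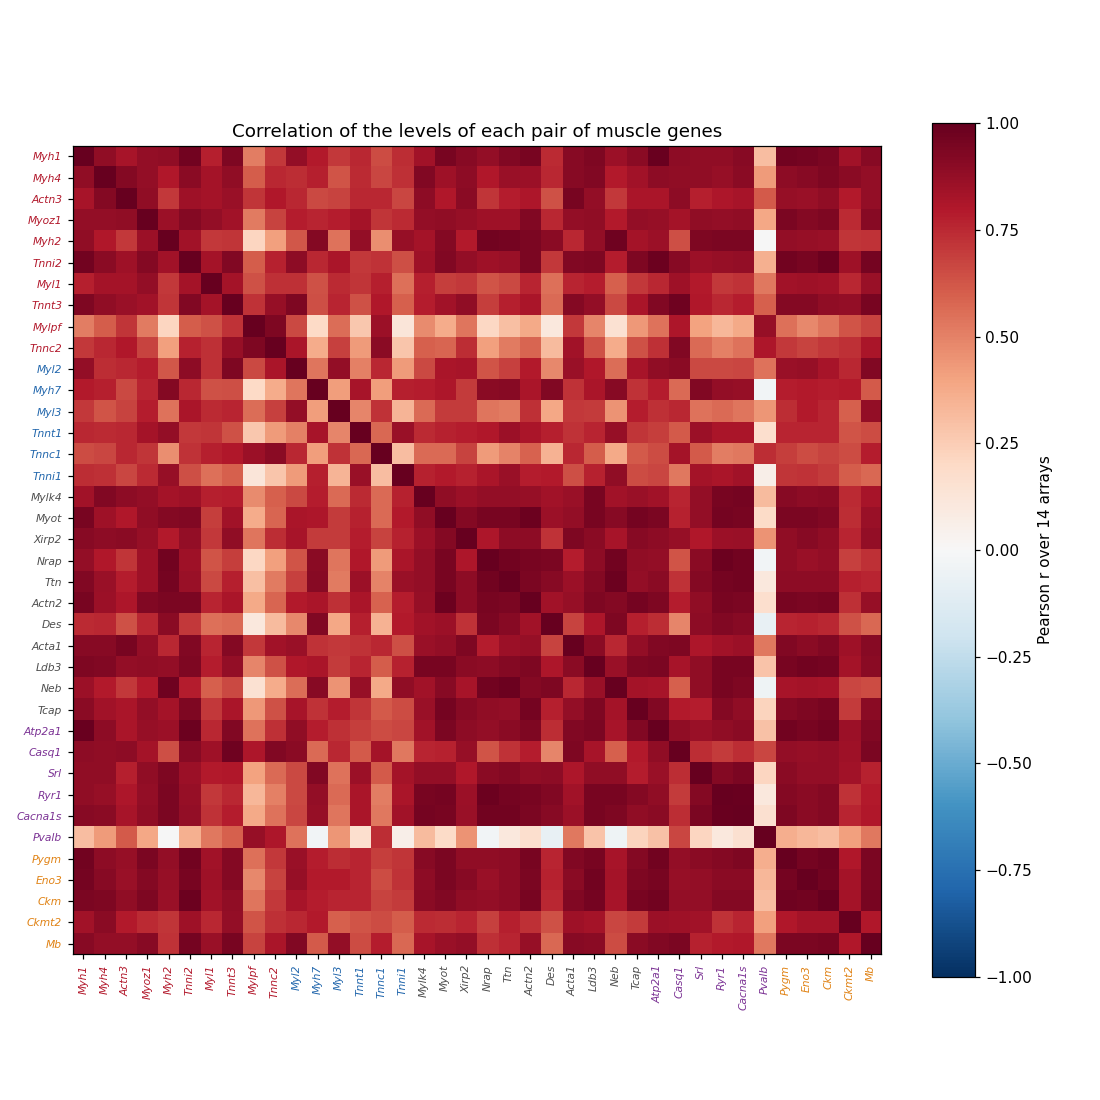
Pearson r of the log2 levels of each pair of the 38 genes over 14 arrays, from blue (-1) to red (1), with genes grouped by class in the colours of the plot of changes by phase. The pale row and column of Pvalb, whose lowest value is -0.08 with Des, and those of Mylpf stand against a median of 0.82.

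Many other genes of the muscle fibre were lower too. Of 24 further sarcomere genes measured (25 listed), 17 were lower at day 0 to 3, 13 in week 1 to 2 and 3 in week 3 to 4. Of 14 genes of excitation (15 listed) 7, 5 and 1 were lower, and of 15 muscle energy genes 12, 5 and 3. None of these was called higher, and none was called in decline or between phases. Tpm3, a tropomyosin, was named after its values were seen and was read by the brightest of its 4 probe sets. It stood 0.73 above control at day 0 to 3 (adjusted p = 0.0748). Both arrays (12.34 and 12.27) lay above the controls (11.98, 10.95 and 11.78), which held for 18.4% of all genes. Mybpc2, the myosin-binding protein of fast fibres, fell by 3.16 on the log2 scale at day 0 to 3 (adjusted p = 0.000735), from 2 or 3 arrays a group. Mybpc1, its slow counterpart, fell by 2.60 (adjusted p = 0.000712), Tmod4, which caps actin filaments, by 2.46 (adjusted p = 0.00199), and Myoz2 measured -2.43 (adjusted p = 0.0504). At day 0 to 3, Mybpc2 (6.04 and 6.02) and Tmod4 (5.90 and 5.64) lay below the medians of their arrays over all genes (6.31 and 6.29). In excitation, Trdn, triadin beside the release channel, fell by 2.65 (adjusted p = 0.000735), Hrc, a calcium-binding protein of the reticulum, by 2.41 (adjusted p = 0.00316), Jph1, which joins the reticulum to the outer membrane, by 1.85 (adjusted p = 0.0263) and Stac3, which couples sensor and channel, by 1.42 (adjusted p = 0.00146). Stac3 was also lower in week 1 to 2 (-1.10, adjusted p = 0.00322) and week 3 to 4 (-0.98, adjusted p = 0.0232). Of the energy genes, Pfkm, the phosphofructokinase of muscle, fell by 2.59 at day 0 to 3 (adjusted p = 0.000579), by 1.67 in week 1 to 2 (adjusted p = 0.00311) and by 1.28 in week 3 to 4 (adjusted p = 0.031). Ampd1, Cox7a1 and Cox8b fell by 2.54, 2.49 and 2.32 at day 0 to 3 (adjusted p = 0.00244, 0.0263 and 0.031).

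Genes that build, innervate or degrade muscle were counted next, beside 3.36%, 4.64% and 0.592% of all genes called lower in the first 3 phases. Of 15 myogenic regulators measured (16 listed), 4 were lower at day 0 to 3, 4 in week 1 to 2 and none in week 3 to 4. Mef2c, a transcription factor of muscle genes, fell by 1.10 at day 0 to 3 (adjusted p = 0.0238), and Myf6, of the MyoD family, by 1.25 in week 1 to 2 (adjusted p = 0.0116). Vgll2 was lower in both (-0.94 and -1.03, adjusted p = 0.0182 and 0.00645), as was Mef2d (-0.76 and -0.74, adjusted p = 0.0197 and 0.0121). None of 7 genes of embryonic and regenerating fibres was called in any phase. Myh3, the embryonic heavy chain, measured -0.41, -0.43, -0.69 and -0.46 in the 4 phases, and Myh8, the perinatal one, -0.51, -0.24, -0.80 and -0.51. Actc1, cardiac alpha-actin, was farthest from control in week 3 to 4 (-0.64, adjusted p = 0.166), and Ankrd1 differed most between decline and week 3 to 4 (0.61, adjusted p = 0.787). One of 10 genes of the nerve-muscle junction was lower at day 0 to 3 (Ache, acetylcholinesterase, -0.82, adjusted p = 0.0414) and 1 in week 1 to 2 (Chrnb1, a subunit of the acetylcholine receptor, -0.92, adjusted p = 0.013). Chrna1 and Chrnd, other subunits, measured -0.88 and -0.64 in week 3 to 4 (adjusted p = 0.0924 and 0.103). Of 10 genes of the dystrophin complex (13 listed), 3 were lower at day 0 to 3 and 1 in week 1 to 2. Dmd, dystrophin, fell by 1.05 at day 0 to 3 (adjusted p = 0.0409), Dtna by 0.91 (adjusted p = 0.0143), and Sgca was lower in both phases (-0.81 and -0.82, adjusted p = 0.0195 and 0.0102). Lama2, a laminin chain, measured -0.87 at day 0 to 3 and missed the threshold by a narrow margin (adjusted p = 0.050). Of 13 genes linked to atrophy (14 listed), 3, 2 and 1 were lower in the first 3 phases and 1, Fbxo30, a ubiquitin ligase subunit, was higher in week 1 to 2 (0.78, adjusted p = 0.0477). Mt2, a metallothionein, stood 1.60 above control at day 0 to 3 with both arrays above every control, and missed the threshold (adjusted p = 0.0533). Trim55 fell by 0.99 at day 0 to 3 (adjusted p = 0.0499). Fbxo32, the ubiquitin ligase atrogin-1 that is known to rise in wasting muscle, was lower in all 3 (-1.11, -1.48 and -1.33, adjusted p = 0.0289, 0.00418 and 0.0269). Mstn, myostatin, measured -1.40 at day 0 to 3 against 1.23 in week 3 to 4, and neither passed (adjusted p = 0.0943 and 0.132).

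**Figure D5:**
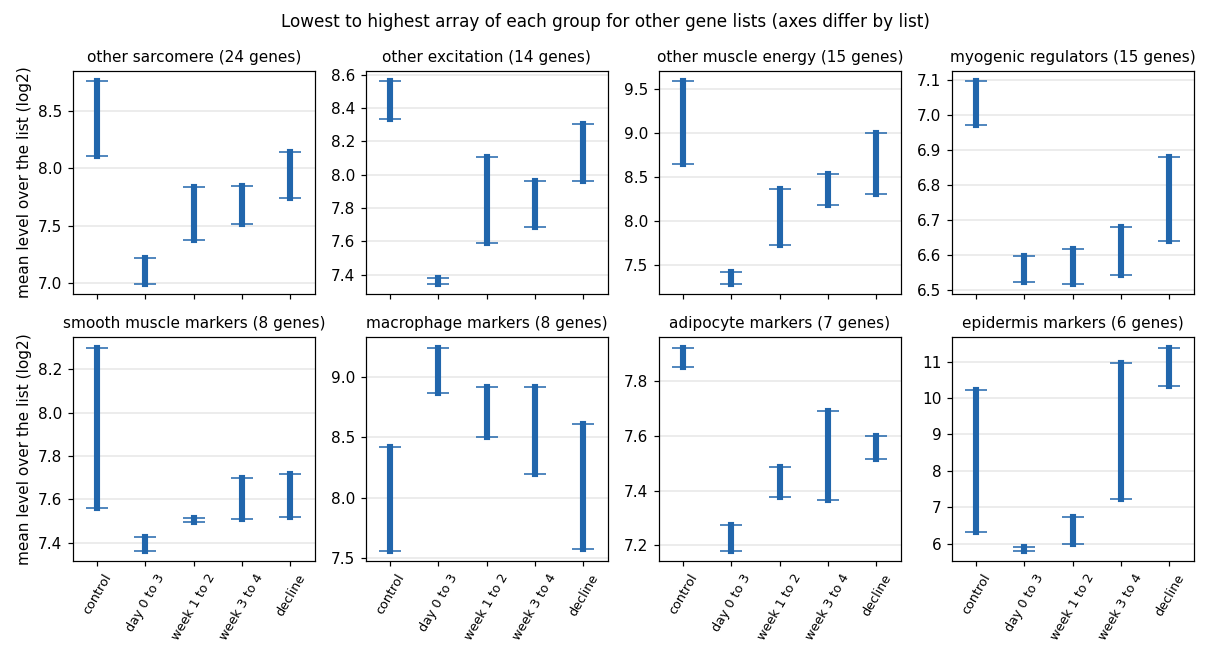
Range of the mean log2 level over the genes of 8 other lists, from the lowest to the highest array of each group (vertical bars). The 3 lists of other muscle genes on the upper left were lowest at day 0 to 3, where the macrophage markers reached 9.24.

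Markers of other tissues differed between the same groups, and their part in the muscle values was not tested. The mean of 8 macrophage markers ran from 7.56 to 8.42 in controls, 8.87 to 9.24 at day 0 to 3, 8.50 to 8.91 in week 1 to 2, 8.19 to 8.92 in week 3 to 4 and 7.57 to 8.61 in decline, and 3 of the 8 were higher at day 0 to 3 (4.46% of all genes). One was higher and 1 lower in week 1 to 2. The mean of 7 adipocyte markers (8 listed) was 7.85 to 7.92 in controls and 7.18 to 7.27 at day 0 to 3, with 4 of 7 lower there and 3 in week 1 to 2. The cartilage marker mean was 8.07 to 8.29 in controls and 7.21 to 7.46 at day 0 to 3. The tendon, neutrophil and cardiac marker means were not lowest at day 0 to 3. Those of fat, smooth muscle, cartilage, epidermis and erythroid cells were each lowest in the 2 arrays where muscle RNA was lowest. The macrophage marker mean was high in these arrays but not only there, as arrays of week 1 to 2 (8.91) and week 3 to 4 (8.92) passed the lower of them (8.87). Changes of single macrophage markers at day 0 to 3 ran from -0.68 to 2.87. The mean of 8 smooth muscle markers was 7.56 to 8.30 in controls and 7.36 to 7.42 at day 0 to 3. Of the tendon markers, 1 of 6 was higher at day 0 to 3 and 5 in week 1 to 2 (5.41% of all genes), and of 8 cartilage markers 2 were lower in each of these phases and 1 was higher in week 1 to 2. None of 8 neutrophil markers and of 3 erythroid markers (6 listed) was called, and no marker of any list was called in decline. The 6 epidermis markers measured (8 listed), keratins and their partners, had no call but a wide range. Their mean was 6.33 to 10.22 in controls, 5.81 to 5.92 at day 0 to 3, 5.98 to 6.73 in week 1 to 2, 7.23 to 10.97 in week 3 to 4 and 10.32 to 11.38 in decline. The 7 cardiac markers averaged 5.81 to 6.33 on every array, close to the medians of the arrays over all genes (6.25 to 6.40), and 2 of them, Myh6 and Nppa, were lower at day 0 to 3 (-1.05 and -0.64, adjusted p = 0.0141 and 0.0411) and in week 1 to 2.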

How the data were processed

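The authors extracted total RNA of whole tarsal joints with mirVana columns, amplified it with a NuGEN Pico kit and hybridised it to Affymetrix Mouse Gene ST arrays, 1 joint per array. The deposited values are log2 intensities, made by the authors with RMA (background correction, quantile normalisation and probe summary) in R 2.15 with affy, per the labels. The release of affy, and whether animal 57 entered the joint normalisation, are details not given in the sources used here. Between arrays, the SD over genes still ran from 1.22 to 1.65, so a second quantile normalisation was among the alternatives. Values ran from 1.56 to 14.26.

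Of 35556 probe sets, the annotation gives 21789 a single gene and 1621 several genes, and lists no entry for 12146. Where a gene had several probe sets (999 genes), the brightest on average stood for it, which left 19938 genes. The array of animal 57 was left out, as the labels mark it. The 5 groups were fitted as group means over 14 arrays by lmFit and eBayes of limma 3.58.1 under R 4.3.3, with no covariate. The call threshold was an adjusted p of 0.05 (Benjamini-Hochberg) across the 19938 genes. The mean of the first 2 group means stands for week 0 to 2. The alternatives were adding animal 57 (15 arrays), leaving out 1 array at a time, only the groups compared, an unmoderated analysis of variance contrast as the methods name, a second quantile normalisation, median-centred arrays, array weights, a robust and trended prior, genes with a group mean of at least 6, the mean of a gene's probe sets, the letter code as a covariate or 1 code alone, and an unadjusted p under 0.05 with at least 2-fold.

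The 38 genes, their classes and the 17 other lists were chosen with earlier results of these data known, so no p is given for a list. Values on all arrays are printed for the 3 members of each class with the largest range and for any member called between phases, and Des was added after its values were seen. Of each other muscle list, up to 4 genes with the largest change are named by the rule, and the 10 genes most like the mean of the 38. Symbols were matched to RefSeq GRCm38.p6, and promoter windows were copied from a RefSeq table. On simulated data for day 0 to 3 against control over 19938 genes, 92 of 100 genes changed 4-fold and 45 of 100 changed 2-fold were recovered, with 14 false calls. The simulated noise was normal, independent between genes and alike in all arrays, and every change was a fall. Genes of the measured arrays varied together, so these figures need not hold for them. Arrays have no read depth, and 2 or 3 arrays per group limit the precision. Each joint came from a separate animal. Figures were drawn with matplotlib 3.10.9.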

Additional observations from a re-analysis of the deposited data

Results flagged for a closer look

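Myl2, the regulatory light chain of slow fibres, was the 1 member whose difference between phases of arthritis passed the test across all genes, at 2.96 on the log2 scale from day 0 to 3 to week 1 to 2 (adjusted p = 0.0282, limma). It was higher in 3 of 3 arrays of week 1 to 2 than in both arrays of day 0 to 3, which held for 28 of the 38 genes and 9.12% of all genes. With animal 57 added, Myl2 was not called (adjusted p = 0.182, limma). Groups of 3 arrays or fewer were not examined for single outlying arrays, and the array of animal 57 lay above every control for none of the 38 genes.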

How the results depend on the processing

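No change of a named gene that was called turned its direction under any alternative run. Over all alternatives, changes of called genes stayed past the threshold in 1247 fits of a gene and missed it in 227. At day 0 to 3, the count of members called stayed between 28 and 38 of the 38 under every alternative other than leaving out an array (33 in the report). In week 1 to 2, adding animal 57 gave 9 in place of 18. In week 3 to 4, where the report gives 12, adding animal 57, fitting only the groups compared and the unmoderated contrast each gave 0, array weights 7, a second quantile normalisation 23 and the unadjusted rule with at least 2-fold 21. In decline, the second quantile normalisation gave 2 and the unadjusted rule 8 in place of 0. For week 1 to 2 against day 0 to 3, in place of 1 (Myl2), the count was 0 with only the groups compared, the unmoderated contrast, centred arrays, the letter code as a covariate or arrays of the first code alone, 2 with animal 57 added and with the second quantile normalisation, 15 with array weights and 24 by the unadjusted rule. For week 3 to 4 against week 0 to 2, in place of 0, it was 1 with only the groups compared and with the second quantile normalisation, 4 with array weights and 4 by the unadjusted rule. From week 3 to 4 to decline it was 0 under all alternatives run. The causes were not tested. With each of the 14 arrays left out in turn, counts ran from 20 to 37 at day 0 to 3, 10 to 21 in week 1 to 2, 0 to 19 in week 3 to 4 and 0 to 1 in decline. Between phases they ran from 0 to 5 (week 1 to 2 against day 0 to 3), 0 to 1 (week 3 to 4 against week 0 to 2) and 0 to 0 (decline against week 3 to 4). No paired analysis was possible because the groups share no replicate numbers: each animal has a number of its own.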
